A study of Arabidopsis thaliana with 6 samples.

Results

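A set of 43 Affymetrix probe sets gave higher signals in floral buds of both atyak1 mutant lines than in the wild type, on every array. They were chosen from the deposited MAS5 signals by 1 rule: all 4 mutant arrays had to reach a signal of 150, and the lowest of them had to be at least 1.5 times the higher wild-type array. Of the 22746 probe sets that are not controls, 53 (0.233%) met that rule, and 10 of these were set aside by gene name, among them AT1G12010, BAT1, BSH, MAC3B and DI21. Of the 43 that form the set, 24 belong to 1 named gene each and 19 have no gene in the probe table used for naming. A probe set without a name could not be set aside by name.

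The study measured 3 groups on ATH1 arrays, with 2 biological replicates and 1 array per replicate: wild-type Col-0, the mutant atyak1-1 and the mutant atyak1-2, both labelled Col-0 as well. All plants were 42 days old, grew in equal spans of light and dark, and gave total RNA from floral buds of primary inflorescences, with all stages to stage 13 mixed. The alleles belong to AtYAK1, which encodes a DYRK-type protein kinase, and the study's title concerns its part in how the male gametophyte develops. The labels do not state the kind of lesion in each allele, and AtYAK1 has 0 probe sets in the naming table, so the labels were not checked against it.

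As background, DYRK kinases phosphorylate serine and threonine residues of other proteins after switching themselves on by phosphorylating a tyrosine of their own, and in yeast the founding member YAK1 acts in growth control under stress. Floral buds of mixed stages hold sepals, petals, stamens and carpels, and inside the anthers the developing pollen. The named genes given a role here, from background knowledge, are of several kinds. Their products include receptor kinases, enzymes of the secretory pathway, RNA-binding and folding proteins, and transcriptional regulators. No role could be given to the 19 members with no gene listed, nor is one given to 6 named members.

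The arrays had like brightness, with median signals over all probe sets from 212.9 to 223.2, and the actin control probes, whose 3′ over 5′ ratio grows as RNA is degraded, gave ratios of 1.91 and 1.58 in the wild type and from 1.43 to 1.68 in the mutants. Transcripts of late pollen were much lower in the mutants: the 12 of 22 listed genes with a named probe set summed to signals of 5520.0 and 7024 in the wild type and from 608 to 1084 in the mutants. All 9 of them that were tested had lower means, and 6 passed the test (limma, adjusted p under 0.05), where 1.64% of all 15164 probe sets tested were called lower. The difference of AGL65 was only -0.06 ± 0.26 (log2, SE). Its signals of 83.0 and 117 in the wild type overlapped those of the mutants, from 77.7 to 107. No named marker of that list is in the set, and the 9 tested, having lower means, could not pass the rule. Listed genes without a named probe set could not be recognised. The part of the loss of pollen transcripts, or of RNA quality, in the higher signals was not tested. In bulk RNA, more cells of a type and more RNA per cell cannot be told apart, and the arrays were scaled to 1 level, so a signal is a share of the array's total. The median log2 fold change of all probe sets tested was 0.09.

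Because the rule used the contrast of mutants with the wild type, the sizes below describe how the members were chosen, and no test of them is offered. The ratio of the lowest mutant array to the higher wild-type array ran from 1.504 to 5.78 with a median of 1.68. It was at least 2 for 7 members and under 1.6 for 17, so many members lie near the edge of the set. The last members inside were 258380_at, 255852_at and AT2G46200, and the nearest named probe sets outside were AT1G25550, AT2G38870 and AT2G42690, with ratios of 1.48, 1.47 and 1.45. AT1G25550, just outside, had signals of 247 and 252 in the wild type and of 443, 391, 473 and 372 in the mutants. AT2G46200, just inside at a ratio of 1.51, had 111 and 120.3 against 214, 205, 197 and 181. With a floor of 100 in place of 150 the rule gave 60 probe sets, and with a fold of 1.3 it gave 155.

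**Figure D1:**
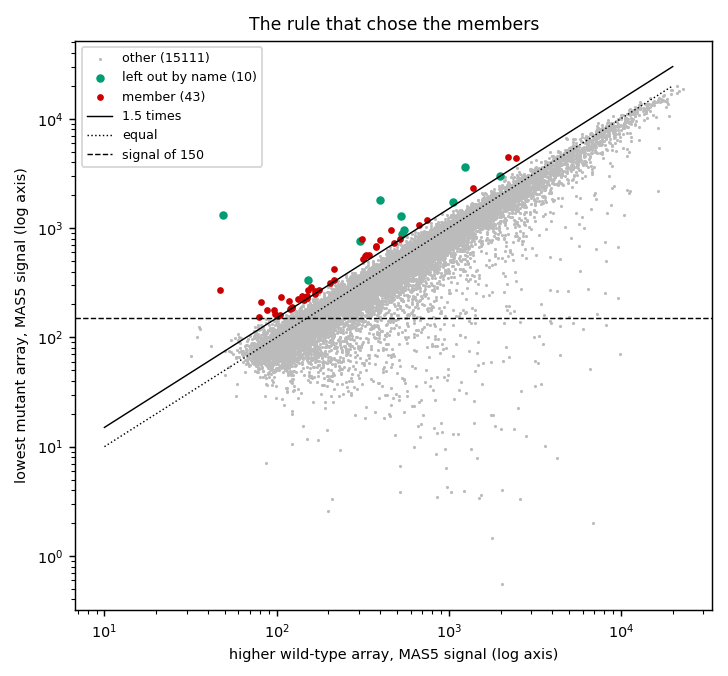
Each point is 1 of 15164 tested probe sets, with the higher of the 2 wild-type signals on the x axis and the lowest of the 4 mutant signals on the y axis, both MAS5 signals on log axes. The 43 members (red) lie above the line of 1.5 times and the dashed floor of 150, many of them close to the line, and the 10 set aside by name are green.

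As log2 fold changes of the mean of both alleles over the wild type, members ranged from 0.71 to 3.15 with a median of 1.06. The median was 1.13 in atyak1-1 and 1.05 in atyak1-2. The linear fit called 20 of the 43 higher (limma, adjusted p under 0.05), against 0.284% of all probe sets tested, and 41 with the replicate number as a block, against 2.80%. These counts come from the contrast that chose the members and are not read further. In the opposite direction, 490 probe sets had both wild-type arrays at 150 or more and at least 1.5 times the highest mutant array.

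**Figure D2:**
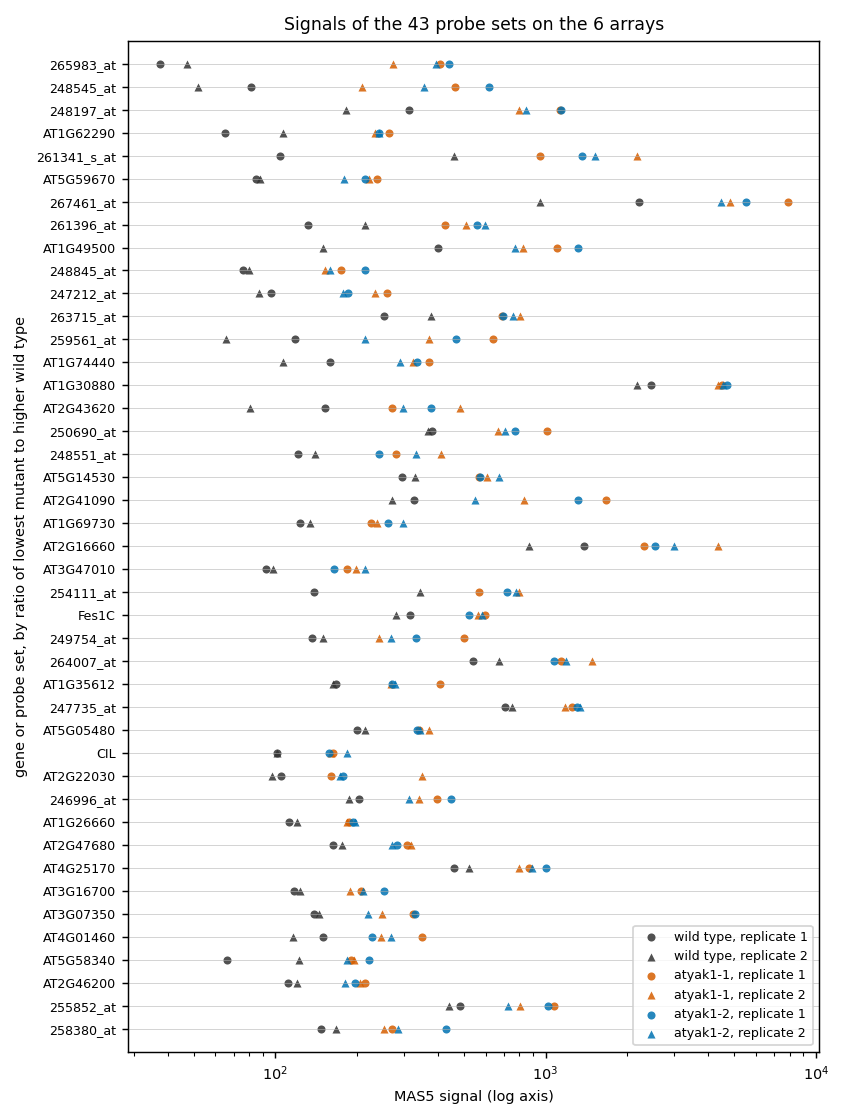
Signals of the 43 probe sets on the 6 arrays (x axis, MAS5 signal on a log axis), in the order of the ratio of lowest mutant to higher wild-type signal; circles are replicate 1, triangles replicate 2, and colours the genotype. In every line the 4 coloured symbols lie to the right of both dark ones, while the distance between the dark ones varies from none to more than the gap to the mutants.

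Members with a receptor or calcium role were 2 receptor-like kinases and a calcium sensor. AT5G59670, a receptor-like kinase with leucine-rich repeats, gave 84.4 and 87.7 in the wild type, 239 and 223 in atyak1-1, and 214 and 179 in atyak1-2, which is 2.47-fold between the geometric means. Its wild-type arrays were nearly equal and dim, and the 4 mutant arrays lay close together. AT1G69730 is of the family of wall-associated kinases, which span the plasma membrane and some of which bind cell wall pectin. It gave 123 and 134 in the wild type, 225 and 237 in atyak1-1, and 260.0 and 297 in atyak1-2 (1.98-fold). Both atyak1-2 arrays were above both atyak1-1 arrays for this gene. AT2G41090, a calmodulin-like calcium-binding protein, gave 327 and 270.2 in the wild type, 1680.1 and 832 in atyak1-1, and 1319 and 550.2 in atyak1-2 (3.38-fold). In both alleles its replicate 1 array was more than 2 times its replicate 2 array, a wider spread than in most members.

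Enzymes of the secretory pathway gave 4 members. AT1G62290, an aspartic protease of the vacuolar type, stood first among named members by the ratio that chose them, at 2.201: its signals were 65.0 and 107 in the wild type, 263 and 235 in atyak1-1, and 241 and 241 in atyak1-2. The mutant arrays were almost alike and the spread lay in the wild type. AT2G43620, of the chitinase family, whose enzymes cleave chitin of fungal walls, gave 152 and 80.5 in the wild type, 271 and 484 in atyak1-1, and 376 and 298 in atyak1-2 (3.15-fold). Its replicates moved in opposite directions in the alleles. AT3G47010, a glycosyl hydrolase of family 3, the family of enzymes that trim sugars from wall polymers, gave 92.6 and 98.3 in the wild type and from 164 to 215 in the mutants (1.99-fold). AT5G05480, a peptide N-glycanase of the A type, which removes glycans from proteins, gave 200.4 and 215 in the wild type and from 333 to 370 in the mutants (1.67-fold), a small but even difference.

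The group of RNA, WD40 and protein folding roles gave 5 members with small differences, between 0.71 and 0.95 on the log2 scale. AT5G14530, a protein of WD40 repeats, which serve as platforms for protein complexes, gave 295 and 330 in the wild type, 565 and 609 in atyak1-1, and 572 and 670 in atyak1-2 (1.93-fold). Fes1C, a nucleotide exchange factor that lets Hsp70 chaperones release their substrates, gave 316 and 280.3 in the wild type, 599 and 562 in atyak1-1, and 521 and 581 in atyak1-2 (1.90-fold). That the mutant values of both genes lay above the wild type follows from the rule. The arrays of the alleles interleaved in both genes. AT2G47680, a helicase with a CCCH zinc finger, gave 163 and 176 against a range of 269 to 318, and AT1G26660, of the prefoldin family that hands unfolded proteins to chaperonins, gave 112 and 121 against 184 to 197. AT2G46200, a protein of the minor spliceosome, which removes a rare class of introns, differed 1.72-fold.

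Transcriptional regulators gave 3 members. CIL, a CCT-domain protein similar to the regulator CIA2 of chloroplast protein import genes, gave 101.4 and 101.5 in the wild type and 164, 160.1, 157 and 184 in the mutants (1.64-fold), the evenest wild-type pair in the set. AT4G01460, a basic helix-loop-helix factor, gave 150.5 and 116 against 228 to 348 (2.04-fold). AT5G58340, a Myb-like DNA-binding protein, gave 66.4 and 122 against 184 to 223 (2.198-fold), and most of its spread came from the wild-type arrays.

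Another 3 named members act in transport, metabolism or protein turnover. AT2G16660, a nodulin-like transporter of the major facilitator superfamily, gave 1386 and 871 in the wild type, 2322 and 4331 in atyak1-1, and 2535 and 2978 in atyak1-2 (2.69-fold), with replicate 2 lower in the wild type and higher in both mutants. AT3G16700, of the fumarylacetoacetate hydrolase family, which splits carbon chains in catabolism, gave 117 and 124 against 188 to 252 (1.77-fold). AT2G22030, of the kelch-repeat proteins, gave 105 and 97.4 in the wild type, 161 and 349 in atyak1-1, and 177 and 174 in atyak1-2, so that 1 array stood far above the other mutant arrays.

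No role is given here for 6 named members. AT1G30880 gave 2451 and 2183 in the wild type, 4510.0 and 4361 in atyak1-1, and 4714 and 4538 in atyak1-2 (1.96-fold), and its mutant arrays were within a narrow band. AT1G49500 gave 398 and 149.9 in the wild type, 1106 and 828 in atyak1-1, and 1314 and 770.4 in atyak1-2 (4.02-fold). The wild-type arrays of AT1G49500 differed so much that its log2 fold change, 2.01, was 2.71 without wild-type replicate 1 and 1.3 without wild-type replicate 2. AT1G74440, AT4G25170 and AT3G07350 differed 2.51-fold, 1.82-fold and 1.95-fold. AT1G35612, a pseudogene in the gene table, gave 168 and 164 against 407, 267, 269.9 and 276, with the first array of atyak1-1 above the rest.

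The 19 probe sets without a named gene are known by their identifiers alone, and those described were picked after their values were seen. The widest gap of the set was that of 265983_at, with 37.3 and 47.1 in the wild type, 408 and 272 in atyak1-1, and 439 and 393 in atyak1-2. Its wild-type signals lay below 73.6, the lowest geometric mean signal tested, so its fold of 8.87 rests on a dim denominator, and with 32 added to every signal its log2 fold change was 2.45 in place of 3.15. The other probe set whose wild-type geometric mean lay under 73.6 was 248545_at, with 81.2 and 51.8 against 210 to 616. 267461_at gave 2222 and 953 in the wild type and from 4457 to 7880 in the mutants. 261341_s_at, whose suffix marks a probe set that can match several transcripts, gave 104 and 460 in the wild type and from 956 to 2175 in the mutants. 254111_at gave 139 and 343 against 566 to 799. With AT1G49500, these last 3 are the 4 members whose wild-type arrays differed 2-fold or more, against 1.98% of all probe sets tested. Without wild-type replicate 1 and 2 in turn, the log2 fold change was 2.54 and 1.32 for 267461_at, 1.65 and 3.79 for 261341_s_at, and 1.05 and 2.35 for 254111_at.

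Whether the alleles differed was asked with a contrast that did not choose the members, although a member had to be high in both alleles, which leaves less room for a difference. The test called 0 of the 43 between atyak1-2 and atyak1-1 (limma), and 0 had an unadjusted p under 0.05. Over all probe sets tested it also called 0 (0%), and 151 had an unadjusted p under 0.05. With the replicate block it again called 0 members, and over all probe sets tested 0.0132% were called higher in atyak1-2 and 0 lower. Members were not all measured closely enough to be called alike: the 95% interval of the difference lay within 1 log2 unit of 0 for 33 of them and within 0.5 for 5, and it reached 1.61 on either side for 261341_s_at. The narrowest was that of AT1G30880, 0.06 ± 0.28 (log2 difference with its 95% half-width, 2 arrays against 2). These intervals come from the fit without the block. With the block the half-widths ran from 0.25 to 0.84, 40 intervals lay within 1 log2 unit of 0 and 10 within 0.5, and the intervals of 259561_at (-0.62 ± 0.41) and 248545_at (0.59 ± 0.45) did not hold 0, with an adjusted p of 1 for both.

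Among named members, the smallest p-values for the allele difference were those of AT1G69730 (0.27 ± 0.43, higher in atyak1-2), AT4G25170 (0.19 ± 0.36), AT2G22030 (-0.43 ± 0.85), AT1G35612 (-0.27 ± 0.54) and AT5G59670 (-0.24 ± 0.48), each with an adjusted p of 1 in limma. AT2G22030 and AT1G35612 changed sign when 1 atyak1-1 array was left out, with 0.13 without replicate 2 and 0.03 without replicate 1. Both atyak1-2 arrays lay above both atyak1-1 arrays in 8 members and below them in 4, together 12 of 43, where 20.8% of all probe sets tested showed such a separation in either direction. The median absolute allele difference was 0.16 log2 units over the members and 0.10 over all probe sets tested.

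**Figure D3:**
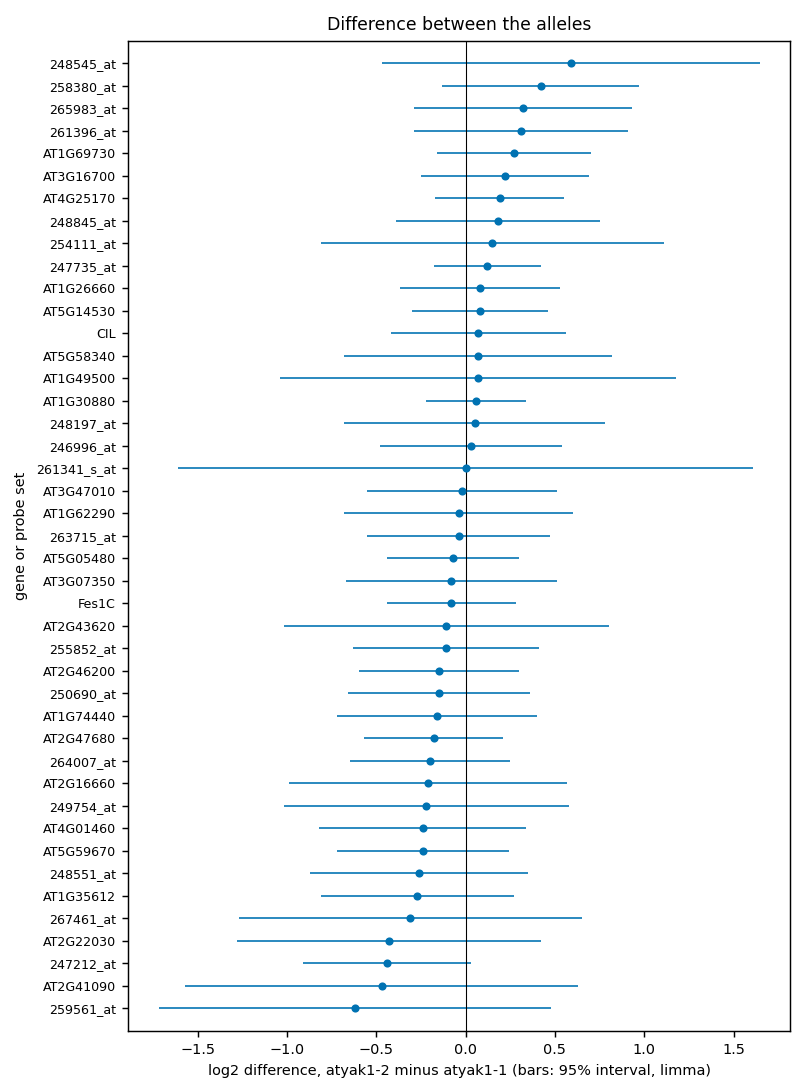
Log2 difference of atyak1-2 minus atyak1-1 for each of the 43 probe sets (points) with the 95% interval of the limma fit (bars), ordered by the difference. The fit has no replicate block. Every interval crosses 0, and their half-widths run from 0.28 to 1.61.

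Replicate numbers were another source of spread. The rule did not use the numbers, but it used the lowest mutant and the higher wild-type array. The spread between replicates therefore bears on which probe sets pass. Comparisons of replicates with all probe sets tested, here and in the next paragraph, carry that selection. In 22 of the 43 members (51.2%) the replicate 2 array was below the replicate 1 array in both alleles, against 32.7% of all probe sets tested, and in 11 (25.6%, against 34.5%) it was above in both. These shares are descriptions over probe sets that share the same 6 arrays. AT2G41090 had the widest such difference, with -1.14 on the log2 scale for the mean of both alleles, followed by 248545_at with -0.96 and 259561_at with -0.95. In the other direction 261341_s_at had 0.68, AT2G16660 0.57 and 248551_at 0.51, each above in both alleles. The wild type moved the same way as both alleles in 22 of 43 members (51.2%), against 41.5% of all probe sets tested.

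Within replicate 1 the members were higher in the mutants by a median of 1.11 log2 units (0.66 to 3.5), and within replicate 2 by 1.03 (0.64 to 2.80). The rule sets the lower limit of both ranges. The difference was the larger one in replicate 1 for 27 of the 43, against 48.6% of all probe sets tested. AT5G58340 had 1.64 within replicate 1 and 0.64 within replicate 2, and AT2G16660 had 0.81 and 2.04, so that some members owe much of their mean to 1 of the replicates. Others were even: AT5G14530 had 0.94 and 0.95, AT1G69730 0.97 and 0.99, and AT5G05480 0.75 and 0.73. Across the members the replicate differences of the wild type and of the mutants had a Pearson correlation of 0.48 (Spearman 0.43, n = 43 probe sets of the same arrays), against 0.33 over all probe sets tested.

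**Figure D4:**
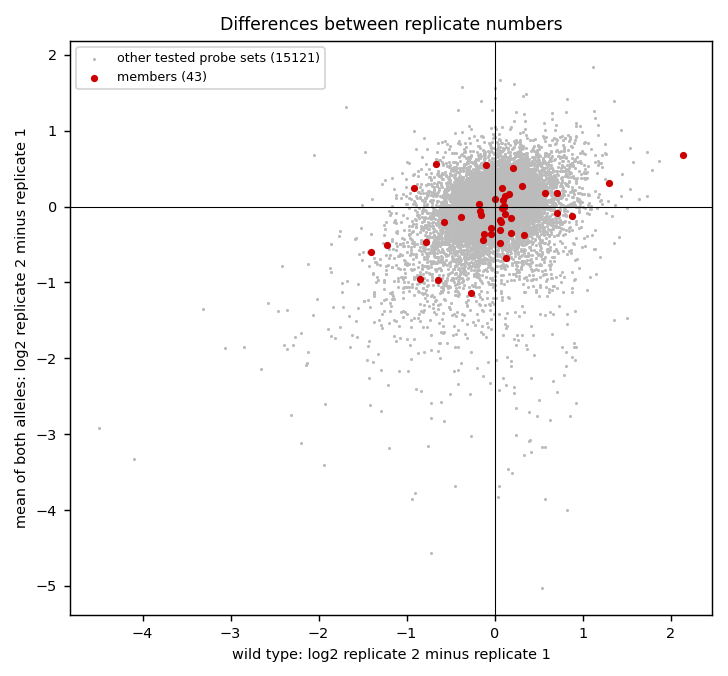
Log2 signal of replicate 2 minus replicate 1 in the wild type (x axis) and as the mean of both alleles (y axis), for the 43 members (red) and the other tested probe sets (grey). Members are spread along both axes, with more of them below than above 0 on the y axis.

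By position, the 24 named members lie on all 5 chromosomes, with 7 on chromosome 1, 6 on chromosome 2, 3 each on chromosomes 3 and 4, and 5 on chromosome 5. Named probe sets tested had 26.2% on chromosome 1, 14.3% on chromosome 2, 20.3% on chromosome 3, 14.5% on chromosome 4 and 23.8% on chromosome 5. AtYAK1 lies on chromosome 5, and 1563 protein-coding genes of the TAIR10.1 gene table stand between it and the nearest named member, AT5G14530. None of the 23 protein-coding members has another named member as its neighbour, and the members with no gene listed could not be placed.

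Of the 46 protein-coding genes next to a member, 15 were tested, 11 of these had higher means in the mutants, as had 64.5% of all probe sets tested, and their median log2 fold change was 0.09, equal to that of all probe sets tested. The test called 1 of the 15 (1.93% of all probe sets tested were called in either direction). That gene, AT5G02160, is next to Fes1C and rose from 2082 and 1737 in the wild type to 3356 and 2924 in atyak1-1 and 3308 and 2957 in atyak1-2 (log2 fold change 0.72 ± 0.13, SE; adjusted p = 0.048, limma). Its call ended under the stricter signal filter (adjusted p = 0.065), without the variance trend (0.09), and without each array other than atyak1-1 replicate 2 (0.051 to 0.38). The gene on the other side of Fes1C, AT5G02140, had 64.5 and 122 in the wild type, 135 and 197 in atyak1-1, and 206 and 235 in atyak1-2 (1.09 ± 0.30), which did not pass (adjusted p = 0.15) but did with the replicate block (0.019). Its value was 0.63 without wild-type replicate 1. Fes1C and both of its neighbours thus had higher signals on all 4 mutant arrays than on either wild-type array, as had 21.3% of all probe sets tested. These neighbours were singled out after their values were seen.

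AT2G43610 and AT3G47000, tested relatives next to members, did not pass the test. As 15 of the 46 neighbouring genes were tested, relatives among the rest could not be judged. AT2G43610, beside the chitinase gene AT2G43620 and of the same family, had 426 and 471 in the wild type and from 414 to 617 in the mutants (0.16 ± 0.13, adjusted p = 0.55, limma), and its groups overlapped. AT3G47000, beside AT3G47010 and also a glycosyl hydrolase of family 3, had 698 and 723 in the wild type and from 832 to 979 in the mutants (0.35 ± 0.13, adjusted p = 0.24), without overlap. AT1G26665, next to AT1G26660 and not counted here as a relative, had 976 and 949.8 in the wild type and from 1315 to 1355 in the mutants. Its difference (0.47 ± 0.11) did not pass in limma (adjusted p = 0.093) but did with the replicate block (0.03). The difference between a member and its neighbour was not tested.

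The chaperones offer the pathway of 1 member, Fes1C. Of 16 listed chaperones and co-chaperones 5 were tested, 1 of them Fes1C, which the rule chose on this contrast. Of the other 4, 2 had higher means and 2 lower, with a median log2 fold change of 0.06, and limma called 0 of them, with 1 at an unadjusted p under 0.05. Fes1B, its relative, gave 517 and 518 in the wild type, 851 and 808 in atyak1-1, and 736 and 763 in atyak1-2 (0.61 ± 0.11). That difference did not pass in limma (adjusted p = 0.056), and it passed with the replicate block (0.016), with array weights (0.043) and without the signal filter (0.044). Fes1A gave 304 and 307 against 321 to 402 (0.19 ± 0.14, adjusted p = 0.55). The Hsp70 genes on which such factors act, Hsp70-2 and AT3G09440, had -0.06 ± 0.13 and -0.07 ± 0.19, and the mutant arrays overlapped the wild type in both. For AT3G09440 they lay on both sides of it, and for Hsp70-2 1 of the 4 lay below both wild-type arrays and none above. Their signs turned with arrays left out, to 0.08 for Hsp70-2 without wild-type replicate 2, and to 0.06 and 0.12 for AT3G09440 without atyak1-1 replicate 1 and without wild-type replicate 2.

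Markers of other parts of the bud were thinly covered, and their counts of higher means stand beside 64.5% of all probe sets tested. The tapetum and pollen wall list had 4 tested genes, which all had higher means (median 0.25). So had both tested genes of carpel and ovule (0.44) and 2 of 3 genes of photosynthesis (0.13), and none of these 9 passed in limma, with 1 at an unadjusted p under 0.05. The 4 tapetum genes summed to 4583 and 9390.0 in the wild type and from 6253 to 10190.0 in the mutants, and the 3 photosynthesis genes to 32500.0 and 39920.0 against 36540.0 to 40260.0, so both overlapped. The carpel genes summed to 749.3 and 1014 in the wild type and from 1102 to 1349 in the mutants, and their part in the set's values was not tested. Of the 2 petal and sepal genes tested, 1 was called lower. The ribosome biogenesis list had 3 tested genes, with 0 called (limma), 0 at an unadjusted p under 0.05 and a median of -0.00. Ethylene had 2 tested and 1 called higher, and brassinosteroid 1 tested and 1 called higher. Those 2 calls are AT1G12010 and BAT1, which were set aside by name. None of these lists held a named member, and a list gene among the 19 members with no gene listed would not be seen. The lists for meristem, salicylic acid and defence, and cell division had 0 tested genes.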

How the data were processed

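Transcript signals of 6 ATH1 arrays, grouped by their titles, were taken as deposited, as linear MAS5 signal intensity for each of 22810 probe sets. Per the submitters' processing notes the tools were GCOS and MAS5, whose versions and order of use are not stated there. The mean signal trimmed by 2% at each end was 499.81 to 499.83 on every array. MAS5 returns positive values for dim probe sets too, and no detection calls entered. Precision is limited by the number of arrays. The members, lists and tests were chosen with earlier results of these data known.

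Signals were taken to log2. After 64 controls and the third of probe sets that was dimmest by mean log2 signal were left out, 15164 remained, including all 43 members. One mean per genotype was fitted to the 6 arrays with limma 3.58.1 in R 4.3.3, with a variance trend (3 residual and 3.84 prior degrees of freedom) and Benjamini-Hochberg adjustment over the 15164. The fit was checked on simulated data whose arrays were drawn independently, which does not cover a link between arrays of the same replicate number. Plots used matplotlib 3.10.9 in Python 3.11.15. A probe table with 13513 probe sets of 1 gene, 503 of several and 8794 with none listed gave the names, and all 24 named members matched a record of the TAIR10.1 gene table. The arrays carry no coordinates, and none are printed.

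Every named member is described. List genes named are up to 4 per list by smallest p, chaperones in full, and AGL65 for its small difference. Roles are background knowledge, sorted into groups after the members were seen. A plan to sort genes by annotated description and to search promoters was not run, as neither kind of table was used here. Replicate numbers were taken to pair samples in the replicate comparisons and in the fit with the replicate block. The main fit leaves the pairing out. The deviations of same-numbered samples from their group means correlated at 0.25 (wild type with atyak1-1), 0.35 (wild type with atyak1-2) and 0.61 (the alleles). The pairing comes from the titles and these correlations alone.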

Additional observations from a re-analysis of the deposited data

Results flagged for a closer look

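Among the 4 mutant arrays of each of the 43 members, 2 members had 1 array far from the other 3. For AT1G35612 atyak1-1 replicate 1, with a signal of 407, stood above the others, and the gap on the log2 scale was 0.919 of the whole range. For AT2G22030 atyak1-1 replicate 2, with 349, stood above the others, with a gap of 0.872 of the range. Both pass Dixon's critical value for 4 values, which chance alone passes in about 5% of unselected groups, and 43 groups were tested. The rule used these same arrays and set a lower limit for each, which leaves more room for a high array than a low one. The share of 5% may thus not hold for the members.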

How the results depend on the processing

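The 43 members became 7 with a fold of 2, 155 with 1.3, 19 with a floor of 300 and 28 with 32 added to each signal. Of the 43, 42 remained after quantile normalization and 42 after scaling to a common median. With 1 array left out of the rule, which can only add probe sets, the number ran from 56 to 202. It was 202 without wild-type replicate 1 and 111 without wild-type replicate 2. No member's fold changed direction under any alternative run. As all mutant arrays of a member lie above both wild-type arrays, leaving out an array or adding 32 could not have reversed it. This is thus no test of the members. The 20 members called higher became 41 with the replicate block and 9 under the stricter signal filter, which left 28 of them in the fit. With 1 array left out, the calls ran from 0 to 25: 0 without either wild-type array (limma, 42 at an unadjusted p under 0.05 each time), 2 without atyak1-2 replicate 1 and 1 without atyak1-2 replicate 2. Between the alleles 0 members were called under every alternative run, the replicate block included (2 at an unadjusted p under 0.05). Of the list genes 10 were called, 4 under the stricter filter (8 at an unadjusted p under 0.05), and from 0 to 11 with 1 array left out, with 5 without atyak1-2 replicate 1, 2 without atyak1-2 replicate 2, 1 without wild-type replicate 1 and 0 without wild-type replicate 2 (16 at an unadjusted p under 0.05). The 10 list genes called in the main fit include the member Fes1C, and AT1G12010 and BAT1, which were set aside by name. Over all probe sets tested, 1.93% were called in either direction. With 1 array left out, some log2 values spanned 0, and those given here are not all of them. Hsp70-2 ran from -0.20 to 0.08, and AT3G09440 from -0.26 to 0.12 (0.06 without atyak1-1 replicate 1). The allele differences ran from -0.99 to 0.13 for AT2G22030 and from -0.57 to 0.03 for AT1G35612. The promoter window and the function group background were not run. Dim wild-type signals limit the folds: 29 of the 43 members had a wild-type geometric mean under the median of all probe sets.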
